A study of Mus musculus with 8 samples.

Results

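The genes described here are 9 genes of the response of a cell to foreign double-stranded RNA: the sensor Ifih1, the adaptor Mavs, the transcription factors Irf3 and Irf7, the interferon-induced genes Isg15, Ifit1 and Ifit3, the kinase gene Eif2ak2 and the RNA-editing gene Adar. They were found by symbol in the deposited count table, where each has 1 row, so that they make up 9 of 52636 rows. They were measured in mouse embryos and serve as a check of a response to the injected mRNA and antibody. By the labels, 7 of the 8 libraries came from zygotes microinjected with mRNA. RNA-seq of wild-type B6C3F1 x CD1 embryos, cultured in KSOM after collection at the pronuclear stage, gave 8 libraries. The labels set 3 groups. The ZP3 Trim-away group (3 libraries) received mCherry-Trim21 mRNA at 0.2 mg/ml, dextran beads labelled with Oregon Green (OGDB) at 0.02 mg/ml and anti-ZP3 at 1 mg/ml. Trim-away sends a protein bound by an antibody to the proteasome through the ubiquitin ligase TRIM21. The buffer group (4 libraries) received the same mRNA and OGDB with the antibody buffer instead of anti-ZP3. Both were injected at 15 h post-hCG and RNA was extracted on the following day, from pools of embryos. The non-manipulated group (1 library) was not injected. When RNA was extracted, the ZP3 Trim-away embryos were still at the 1-cell stage, whereas the buffer embryos had divided, and the non-manipulated embryos carry the same stage label as the buffer embryos. In every comparison of ZP3 Trim-away below, the treatment and the stage of the embryos cannot be told apart.

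In most somatic cells, long double-stranded RNA is bound in the cytoplasm by MDA5, the product of Ifih1, and shorter RNA with a triphosphate end by RIG-I. Both signal through MAVS on the outer mitochondrial membrane to the kinases TBK1 and IKKε, which activate IRF3 and IRF7, and these switch on the interferon genes. Secreted interferon then acts through its receptor, JAK kinases and factors that include IRF9 on promoters that hold an interferon-stimulated response element (ISRE), and induces genes such as Isg15, the Ifit genes, Eif2ak2 and Adar. Mouse oocytes and early embryos are known for a weak interferon response and for cleaving double-stranded RNA with Dicer.

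The promoters of the members were searched for the element on which interferon signalling acts. A core of the ISRE, GAAANNGAAA, read on both strands (the other strand reads TTTCNNTTTC), was searched in the RefSeq promoter windows of GRCm38.p6, which run from 250 bases before to 50 bases after each annotated start. All 9 genes had a window, and 5 of 9 held the core, against 3.44% of 32851 windows and 3.99% of 27025 genes. Of the other interferon-induced genes listed for this work, 13 of 30 with a window held it. The windows of Mavs, Irf3, Irf7 and Adar, of which Adar has 3, held no match. Interferon is known to induce all 5 members with a match, and also Irf7 and Adar, which held none. A match is a description of the letters and not a site of binding. The matched stretches are shown because they hold the letters of the ISRE core in these 5 members. Capitals mark the matches, each sequence is given 5′ to 3′ on the strand of its gene, and positions are counted from 0 at the annotated start. In Isg15, 3 matches overlap at -78, -72 and -66. In Ifit1 they start at -104 and -85 and in Ifit3 at -156 and -122, both on the opposite strand. In Ifih1 and Eif2ak2 the match lies within the transcribed part, at 32 and 18.
Isg15 (chr4:156200845-156200926, minus strand): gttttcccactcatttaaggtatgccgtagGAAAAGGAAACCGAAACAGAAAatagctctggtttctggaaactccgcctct
Ifit1 (chr19:34640755-34640843, plus strand): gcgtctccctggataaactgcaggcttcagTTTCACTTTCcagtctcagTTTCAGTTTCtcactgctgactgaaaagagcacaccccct
Ifit3 (chr19:34583343-34583446, plus strand): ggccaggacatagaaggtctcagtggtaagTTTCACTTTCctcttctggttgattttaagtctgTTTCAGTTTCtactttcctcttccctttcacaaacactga
Eif2ak2 (chr17:78882535-78882564, minus strand): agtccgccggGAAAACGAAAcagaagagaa
Ifih1 (chr2:62646206-62646233, minus strand): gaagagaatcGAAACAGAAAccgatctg

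The libraries held 13228428 to 15379933 counts in the ZP3 Trim-away group, 17615416 to 22427747 in the buffer group and 22248022 without manipulation. Reads of Trim21, which include those of the injected mRNA, did not follow the labels throughout: the library labelled ZP3 Trim-away 1 had 24727 counts, but ZP3 Trim-away 2 had 0 and ZP3 Trim-away 3 had 55, against 15576 to 205653 counts in the buffer libraries and 0 in the non-manipulated one. The study's text also gives the sizes of the injected groups the other way round, and the labels were followed. For the members and the genes singled out by the test, values are therefore also given without ZP3 Trim-away replicates 2 and 3, as a log2 fold change where each group then held more than 3 counts. That leaves replicate 1 alone against the buffer libraries, so these values have no spread of their own and are given without a test. The mRNA of Zp3, whose protein and not mRNA is the target, was at 28.3, 54.7 and 55.7 CPM (counts scaled to the library size, which was corrected by TMM) in the ZP3 Trim-away libraries, against 105 to 142 CPM in the buffer libraries, and the test with an adjusted p of 0.055 did not call it. All 10 markers of oocytes and early embryos had counts in every library, and their summed level was 3109 to 6180 CPM in the ZP3 Trim-away group, 1059 to 1809 CPM in the buffer group and 1305 CPM in the non-manipulated library, led by Bmp15. Of these 10, Bmp15, Nlrp5, Ooep and Zscan4d were higher in every ZP3 Trim-away than in every buffer library, Zp3 was lower in every one, and the groups overlapped for the other 5. Of all genes tested, 28.6% had groups that did not overlap, and in 13.1% every ZP3 Trim-away library was above every buffer library. Of 9 blood and leukocyte markers found, of which the defining gene Ptprc had 1 count in 1 library, the summed level was 15.7 to 89.0 CPM, 21.7 to 56.8 CPM and 48.2 CPM in the same 3 groups, mostly Cd74. Of 10 cumulus and granulosa markers, 6 had no count in any library and the sum was 14.3 to 48.8, 1.26 to 20.9 and 0.345 CPM. The part of these marker levels in the results below was not tested.

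The 9 genes had means of at most 12.1 CPM over the 8 libraries, and no member passed the test in ZP3 Trim-away against buffer. Of the 9, 6 members passed the filter on low counts, which left out Ifih1, Ifit1 and Ifit3. Of these 6, 0 were called by the quasi-likelihood test of edgeR at an adjusted p under 0.05, against 6.90% of the 13641 genes tested (941 genes, 407 of them higher in ZP3 Trim-away). None of the 6 had an unadjusted p under 0.05, against 21.3% of all genes tested. DESeq2 and limma-voom called 0 as well (18.4% and 10.4% of all genes with an adjusted p), while limma on log2(RPKM + 1) called 1, Isg15 (13.7% of all). With 6 members, counts of 0 and 1 are near these shares. The adjusted p-values ran from 0.376 for Isg15 to 0.968 for Eif2ak2. The median log2 fold change of the 6 was 0.33, with -0.04 over all genes tested, and 3 of the 6 were positive. Nothing in the labels says that the libraries of a group came from separate collections of embryos, so these p-values measure the spread between the libraries. In such pools, fewer cells with a transcript and less transcript per cell cannot be told apart.

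Per kilobase of exon, the mean level over the 8 libraries was highest for Isg15 (10.6 CPM per kb), followed by Mavs (3.62), Irf3 (1.82), Adar (0.961), Eif2ak2 (0.504), Ifit1 (0.427), Irf7 (0.393) and Ifih1 (0.0868), with Ifit3 at 0 in every library. For every pair of neighbours in this order down to Ifih1 the ranges over libraries overlapped. No library had more than 3 counts of all 9 genes. The number of members above 3 counts was 4, 5 and 7 in the ZP3 Trim-away libraries, 4, 7, 6 and 4 in the buffer libraries and 4 in the non-manipulated library.

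**Figure D1:**
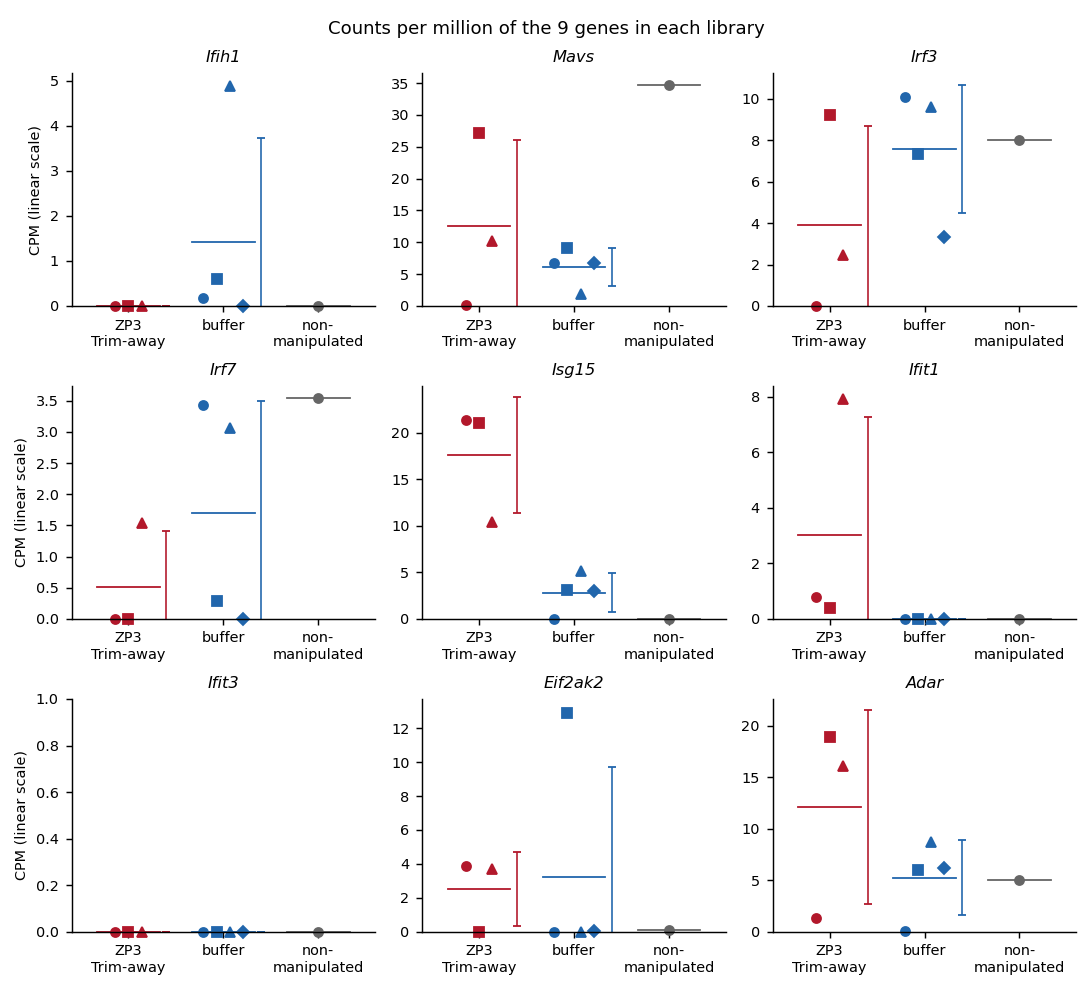
Level of each of the 9 genes in every library, in TMM-scaled CPM on linear axes that start at 0 and differ between genes. Points are libraries (circle, square, triangle and diamond for replicates 1 to 4), horizontal lines are group means and vertical bars are SD, drawn down to 0 at most; the single non-manipulated library has no bar. Isg15 is at 10.4 CPM or more in the ZP3 Trim-away libraries and at 5.13 CPM or less in all others, Ifit3 is at 0 everywhere, and in the other panels except Ifit1 the injected groups overlap.

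Among the sensors, Ifih1 (ENSMUSG00000026896, chromosome 2) encodes MDA5, which forms filaments along double-stranded RNA. It had no count in any of the 3 ZP3 Trim-away libraries, against 0.186, 0.607, 4.87 and 0 CPM in the buffer libraries, and none in the non-manipulated library. The buffer value thus rested mostly on replicate 3, with 116 of the counts, and one buffer library was at 0 like the ZP3 Trim-away libraries. A count of 0 allows up to 3 counts, which over the ZP3 Trim-away group is 0.0705 CPM, so that the buffer mean of 1.42 ± 2.32 CPM (SD, n = 4) put ZP3 Trim-away at least 20.1-fold lower by counting error alone. Without a filter on low counts, the adjusted p of edgeR was 0.305.

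Mavs (ENSMUSG00000037523, chromosome 2), the adaptor on which RIG-I and MDA5 converge, had counts in all 8 libraries. Its levels were 0.172, 27.1 and 10.2 CPM in the ZP3 Trim-away libraries, against 6.78, 9.10, 1.89 and 6.77 CPM in the buffer libraries and 34.7 CPM in the non-manipulated library (95% exact Poisson interval of 32.4 to 37.2, counting error only). Replicates 2 and 3 of ZP3 Trim-away lay above all buffer libraries and replicate 1 below all of them, so the groups overlapped, and the non-manipulated library was the highest of all. The means were 12.5 ± 13.6 CPM in ZP3 Trim-away (SD, n = 3) and 6.13 ± 3.03 CPM in buffer (SD, n = 4), with a log2 fold change of 1.03 ± 1.38 (SE) and an adjusted p of 0.760 (edgeR). The direction turned without ZP3 Trim-away replicate 2, without replicates 2 and 3, where the 2 counts of replicate 1 remained, and in limma-voom on all 7 libraries (log2 fold change -0.17). The genes whose log2 CPM followed Mavs most closely over the 8 libraries, out of all genes tested, were Gm6223 (Pearson's r = 0.961) and Scaf4 (r = 0.959), as a description of 8 points that differ in depth.

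Irf3 (ENSMUSG00000003184, chromosome 7) encodes the factor that MAVS signalling activates first. Its level was 0, 9.22 and 2.45 CPM in the ZP3 Trim-away libraries, against 10.1, 7.33, 9.58 and 3.32 CPM in the buffer libraries and 8.03 CPM in the non-manipulated library (95% interval of 6.92 to 9.27). One ZP3 Trim-away library was within the buffer range and the others were below all buffer libraries. The log2 fold change was -0.96 ± 1.65 (SE) with an adjusted p of 0.819. Without replicates 2 and 3 no ZP3 Trim-away count remained, since replicate 1 had none. Irf3 shares 88 exon bases with Bcl2l12 on the other strand. Bcl2l12 had 74 to 162 counts in the ZP3 Trim-away libraries, 156 to 215 in the buffer libraries and 0 in the non-manipulated library. Whether reads were counted by strand is not stated in the sources used here.

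Irf7 (ENSMUSG00000025498, chromosome 7) encodes a factor that interferon itself induces and that amplifies the response. It had 0, 0 and 1.54 CPM in the ZP3 Trim-away libraries, against 3.44, 0.280, 3.07 and 0 CPM in the buffer libraries and 3.54 CPM in the non-manipulated library. Each injected group thus held libraries with no count, and the highest level was in the library that was not injected. The log2 fold change was -1.70 ± 2.33 (SE) with an adjusted p of 0.767. The ZP3 Trim-away counts were all in replicate 3, so none remained without replicates 2 and 3. Irf7 shares 45 exon bases with Phrf1 on the other strand. Phrf1 had 101 to 338 counts in the ZP3 Trim-away libraries, 17 to 76 in the buffer libraries and 333 in the non-manipulated library.

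Isg15 (ENSMUSG00000035692, chromosome 4) encodes a ubiquitin-like protein that is coupled to other proteins and is among the genes that interferon induces most strongly. Its level was 21.3, 20.98 and 10.4 CPM in the ZP3 Trim-away libraries, against 0, 3.13, 5.13 and 2.95 CPM in the buffer libraries, and it had no count in the non-manipulated library. Every ZP3 Trim-away library was above every buffer library, as in 13.1% of all genes tested. The means were 17.6 ± 6.24 CPM in ZP3 Trim-away (SD, n = 3) and 2.80 ± 2.11 CPM in buffer (SD, n = 4), a ratio of 6.27. The log2 fold change of 2.64 ± 1.50 (SE) had a p of 0.112 and an adjusted p of 0.376 in edgeR. The sign was positive in all 16 alternatives, with adjusted p-values from 0.0288 to 0.577, and only limma on log2(RPKM + 1) put it below 0.05. The ZP3 Trim-away library with many Trim21 reads (replicate 1, 248 counts of Isg15) and those with few or none (323 and 161 counts) were all above the buffer libraries, and without replicates 2 and 3 the log2 fold change was 2.90. The summed oocyte and embryo markers, led by Bmp15, did not overlap between these groups either, while 5 of the 10 markers did.

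Ifit1 and Ifit3 (ENSMUSG00000034459 and ENSMUSG00000074896, chromosome 19) encode proteins with tetratricopeptide repeats, of which IFIT1 binds mRNA whose cap lacks ribose methylation. Ifit1 had 0.775, 0.390 and 7.92 CPM in the ZP3 Trim-away libraries and no count in any buffer library or in the non-manipulated library. In counts these were 9, 6 and 123, so replicate 3 held most of them, and the 9 counts of replicate 1 remained without replicates 2 and 3. The ZP3 Trim-away mean was 3.03 ± 4.24 CPM (SD, n = 3), at least 83.8-fold higher than the limit that 3 counts over the buffer group set, by counting error alone. The filter left Ifit1 out, and without it edgeR gave a p of 0.0155 and an adjusted p of 0.192. Ifit3 had no count in any of the 8 libraries, which allows up to 0.0705 CPM in the ZP3 Trim-away group, 0.0361 CPM in the buffer group and 0.129 CPM in the non-manipulated library. Ifit3 has a near-identical copy, Ifit3b, between whose rows reads could be split, and Ifit3b had no count in any library.

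Eif2ak2 (ENSMUSG00000024079, chromosome 17) encodes PKR, a kinase that on binding double-stranded RNA phosphorylates eIF2α and slows translation. It had 3.87, 0 and 3.67 CPM in the ZP3 Trim-away libraries, against 0, 12.9, 0 and 0.0615 CPM in the buffer libraries and 0.0863 CPM (2 counts) in the non-manipulated library. A single buffer library held nearly all buffer counts, 277 against 1 in the other buffer libraries together. The means were 2.51 ± 2.18 CPM in ZP3 Trim-away (SD, n = 3) and 3.25 ± 6.45 CPM in buffer (SD, n = 4), and the log2 fold change of -0.37 ± 2.65 (SE) had an adjusted p of 0.968. The sign was positive in 5 of 15 alternatives, among them limma-voom (2.29), the fit without ZP3 Trim-away replicate 2 and that without replicates 2 and 3 (0.21). Eif2ak2 shares 174 exon bases with Gm26637 and 47 with n-R5s29 on the other strand, and neither had a count in any library.

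Adar (ENSMUSG00000027951, chromosome 3) encodes ADAR1, which edits adenosine to inosine in double-stranded RNA and so keeps the cell's own RNA from MDA5. It had 1.38, 18.9 and 16.1 CPM in the ZP3 Trim-away libraries, against 0.0929, 6.02, 8.70 and 6.21 CPM in the buffer libraries and 5.05 CPM in the non-manipulated library (95% interval of 4.18 to 6.05). Replicates 2 and 3 of ZP3 Trim-away lay above all buffer libraries and replicate 1 within their range. The means were 12.1 ± 9.41 CPM in ZP3 Trim-away (SD, n = 3) and 5.26 ± 3.65 CPM in buffer (SD, n = 4), with a log2 fold change of 1.20 ± 1.43 (SE) and an adjusted p of 0.727. Without replicates 2 and 3 of ZP3 Trim-away the log2 fold change turned to -1.96. Adar shares 1365 exon bases with Chrnb2 on the other strand, which had no count in any library.

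**Figure D2:**
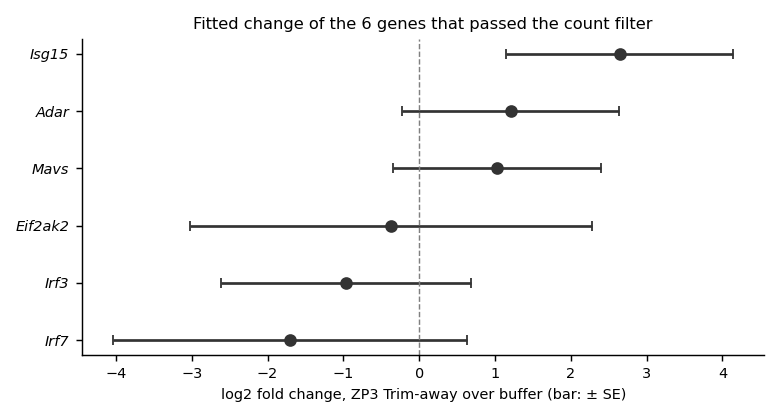
Log2 fold change of ZP3 Trim-away over buffer fitted by edgeR for the 6 genes that passed the filter on low counts, with bars of ± SE. Isg15 has the largest positive value (2.64) and Irf7 the lowest (-1.70), and none of the 6 passed the test after adjustment.

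The wider pathway was described by 11 lists of 167 other genes, chosen like the members with results of these data known. Of the 102 list genes tested, 9 were called in ZP3 Trim-away against buffer (8.82%, with 6.90% of all genes), 7 higher and 2 lower, and 29 list genes had no count in any library. Among the 7, Ikbkb and Trim30a would not have passed the filter on low counts by their buffer libraries alone. The median log2 fold change of the 102 was -0.11, with -0.04 over all genes tested. Calls in the single lists below stand against the same 6.90% of all genes. Of the genes listed as RNA sensors, 2 of 14 tested rose and 0 fell, with a median of 0.93. Both were members of the Oas1 cluster, a family of relatives of the oligoadenylate synthetases. Whether their products sense RNA was not tested. Oas1d had 1356, 485 and 530 CPM in ZP3 Trim-away, against 134, 119, 204 and 121 CPM in buffer (log2 fold change 2.45 ± 0.40 (SE), adjusted p = 0.0109 in edgeR). Oas1e had 719, 185 and 143 CPM in ZP3 Trim-away, against 55.3, 26.9, 67.6 and 19.9 CPM in buffer (3.04 ± 0.65, adjusted p = 0.0281), and lost the call without ZP3 Trim-away replicate 1 or without buffer replicates 1, 2 or 4, where the adjusted p reached at most 0.0773. In both, replicate 1 of ZP3 Trim-away was the highest and no buffer library reached any ZP3 Trim-away library. The same held for the oocyte and embryo markers Bmp15, Nlrp5, Ooep and Zscan4d. Zp3 was lowest in that replicate, and the groups overlapped for the other markers. Whether the Oas1 genes follow these markers was not tested. With replicate 1 as the only ZP3 Trim-away library the log2 fold changes were 3.197 for Oas1d and 4.05 for Oas1e. Oas1 genes are close copies, between which reads could be split. Rigi, the gene of RIG-I, chosen after its values were seen, had 71.0, 20.9 and 51.3 CPM in ZP3 Trim-away, against 0, 0, 6.14 and 13.2 CPM in buffer, with an adjusted p of 0.357. No count in any library was found for 6 RNA sensor genes, Tlr7 among them.

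Of 2 DNA sensor genes tested, Cgas, whose product makes cyclic GMP-AMP on DNA, rose. It had 186, 117 and 108 CPM in ZP3 Trim-away, against 51.2, 21.6, 37.7 and 45.1 CPM in buffer (log2 fold change 1.81 ± 0.40 (SE), adjusted p = 0.0309 in edgeR). No buffer library reached a ZP3 Trim-away library, but the call was lost without any 1 of the 7 libraries, with adjusted p-values of 0.0537 to 0.0885. Of 14 signalling genes tested, Ikbkb, the gene of the NF-κB kinase IKKβ, rose and none fell. This is 7.14%, with 6.90% of all genes, and the median was 0.28. Ikbkb had 59.8, 46.2 and 33.8 CPM in ZP3 Trim-away, against 0.883, 0.0933, 3.24 and 0.246 CPM in buffer (5.37 ± 1.22, adjusted p = 0.0335), and kept the call only without buffer replicate 3 among the 7 omissions of a library, with an adjusted p of up to 0.0867. Ikbkb was tested only because of its level in the ZP3 Trim-away libraries, where it was high. Without ZP3 Trim-away replicates 2 and 3 the log2 fold changes were 5.70 for Ikbkb and 2.23 for Cgas.

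None of the 5 transcription factors, 6 receptors and kinases and 9 inhibitors tested was called by edgeR, with 0, 3 and 4 at an unadjusted p under 0.05 (21.3% of all genes) and 0, 3 and 3 called by DESeq2 (18.4% of all genes). Their median log2 fold changes were -0.80, -0.05 and -0.32. Irf9, whose product takes part in binding the ISRE, had 0, 20.1 and 20.1 CPM in ZP3 Trim-away, against 36.6, 12.2, 18.4 and 26.2 CPM in buffer, with an adjusted p of 0.822. Its ZP3 Trim-away counts all came from replicates 2 and 3. Jak2, a kinase of cytokine receptors, had 559, 629 and 522 CPM in ZP3 Trim-away, against 267, 301, 207 and 484 CPM in buffer, with an adjusted p of 0.128, which was under 0.05 without buffer replicate 4, and a log2 fold change of 0.80 without ZP3 Trim-away replicates 2 and 3. Rnf125, a ubiquitin ligase that limits RIG-I and MAVS, had 3.53, 110 and 78.4 CPM in ZP3 Trim-away, against 261, 208, 222 and 283 CPM in buffer. Its groups did not overlap, with an adjusted p of 0.227, which was 0.0315 without ZP3 Trim-away replicate 1. Without replicates 2 and 3 its log2 fold change was -6.14.

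None of the 11 interferon ligand genes listed passed the filter, which asks for counts in several libraries, and 7 of 11 had no count in any library. Ifng, the ligand with the highest mean, had no count in the ZP3 Trim-away libraries, against 0, 0, 2.77 and 4.92 CPM in the buffer libraries. Ifnb1, chosen after its values were seen as the interferon first induced by IRF3, had no count in any injected library and 0.0432 CPM in the non-manipulated library. Of the receptors through which interferon acts, Ifnar1, chosen after its values were seen, had 14.6, 0.065 and 5.60 CPM in ZP3 Trim-away, against 23.7, 9.57, 8.82 and 10.5 CPM in buffer.

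Of 37 interferon-induced genes outside the members, 17 were tested, with a median of -0.08. Of these 17, 1 rose, 1 fell and 15 did not pass the test (11.8% called, with 6.90% of all genes). No count in any library was found for 7 of the 37, Rsad2, Gbp2 and Gbp3 among them. The number above 3 counts was 17, 13 and 19 in ZP3 Trim-away, 14, 13, 17 and 16 in buffer and 10 in the non-manipulated library. Trim30a, an inducible gene of the TRIM family that limits NF-κB signalling, had 19.4, 20.98 and 21.05 CPM in ZP3 Trim-away, against 0, 0, 0 and 0.123 CPM (2 counts) in buffer and no count in the non-manipulated library. The 3 ZP3 Trim-away libraries lay close to each other, and the summed counts gave a ratio of 854 with a 95% exact interval of 236 to 7066, which covers counting error only. Trim30a was tested only because of its level in the ZP3 Trim-away libraries, where it was high. Its adjusted p was 0.0192 in edgeR and above 0.05, at up to 0.0558, without ZP3 Trim-away replicate 2 or replicate 3. Without both of these libraries, replicate 1 was still above every buffer library, and the 2 buffer counts allow no log2 fold change by the limit above. The Trim30 genes are close copies as well. Ifi35, induced by interferon in many cells, had 21.2, 45.8 and 40.0 CPM in ZP3 Trim-away, against 141, 151, 99.1 and 124 CPM in buffer (log2 fold change -1.85 ± 0.38 (SE), adjusted p = 0.0248). It lost the call without ZP3 Trim-away replicates 2 or 3 or buffer replicates 1, 2 or 4, with an adjusted p of up to 0.065, and its log2 fold change was -2.64 without both of these ZP3 Trim-away libraries. More than 3 counts in one injected group and none in the other were found in both directions. Of the 37 genes, 4 had counts in ZP3 Trim-away and none in buffer (Ifi44, Mx1, Usp18 and Samd9l), and 4 had counts in buffer and none in ZP3 Trim-away (Irgm1, Xaf1, Psmb8 and Ube2l6), all 8 chosen after their values were seen. Over all 167 list genes these numbers were 7 and 11, and over all 52636 rows 1824 and 3371, in groups of 3 and 4 libraries.

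**Figure D3:**
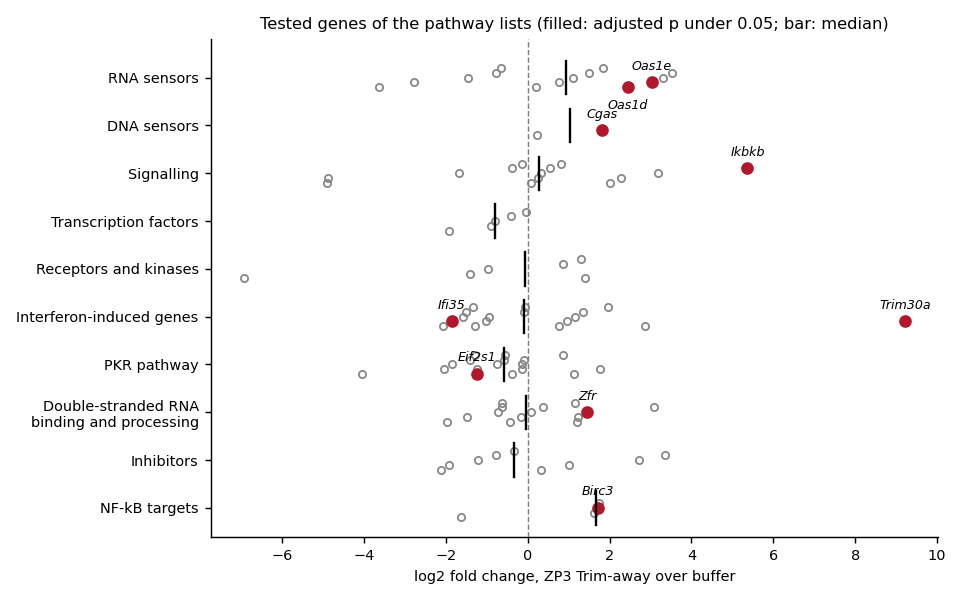
Log2 fold change of ZP3 Trim-away over buffer for each tested gene of the pathway lists (the ligand list had none). Filled points passed the edgeR test at an adjusted p under 0.05 and are named, open points did not, and vertical bars are list medians. Called genes were marked by the test itself, so their distance from the list medians is no separate result. The list medians lie between -0.80 and 1.67.

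The PKR pathway list joins eIF2, its exchange factor, the other eIF2α kinases and the stress genes downstream. All 17 genes were tested, 0 rose and 1 fell (5.88%, with 6.90% of all genes). Their median was -0.56, with -0.04 over all genes tested. Eif2s1, which encodes the eIF2α subunit that PKR phosphorylates, had 251, 247 and 214 CPM in ZP3 Trim-away, against 432, 610, 504 and 692 CPM in buffer (log2 fold change -1.24 ± 0.23 (SE), adjusted p = 0.0180). The groups did not overlap, and the call was lost without ZP3 Trim-away replicates 2 or 3 or buffer replicate 2, with an adjusted p of up to 0.062. The log2 fold change was -1.19 without replicates 2 and 3 of ZP3 Trim-away. Of 14 genes for binding and processing of double-stranded RNA, Zfr, a zinc finger protein of nuclear RNA, rose and none fell. This is 7.14%, with 6.90% of all genes, and the median was -0.04. Zfr had 732, 558 and 485 CPM in ZP3 Trim-away, against 209, 265, 217 and 168 CPM in buffer (1.46 ± 0.24, adjusted p = 0.0116), and was called, as Oas1d was, without each single library, with a log2 fold change of 1.73 without ZP3 Trim-away replicates 2 and 3. Dicer1, the enzyme that cleaves long double-stranded RNA, chosen after its values were seen, had 233, 161 and 117 CPM in ZP3 Trim-away, against 56.6, 74.2, 80.6 and 81.3 CPM in buffer, with an adjusted p of 0.0544.

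Of the NF-κB targets, 4 of 11 were tested and 1 was called, with 6.90% of all genes. This gene, Birc3, which encodes an inhibitor of apoptosis, rose. It had 703, 315 and 312 CPM in ZP3 Trim-away, against 118, 226, 88.1 and 106 CPM in buffer (log2 fold change 1.72 ± 0.42 (SE), adjusted p = 0.0425), and it kept the call only without buffer replicate 2 among the 7 omissions, with an adjusted p of up to 0.130. Without ZP3 Trim-away replicates 2 and 3 its log2 fold change was 2.35. The inflammatory cytokine genes Il6, Tnf and Il1b, chosen after their values were seen, had no count in any library. Of the called genes, those on the list of interferon-induced genes were Trim30a, which was higher, and Ifi35, which was lower. These calls do not describe that list as a whole. Among the members, Isg15 and Ifit1 were higher in every ZP3 Trim-away than in every buffer library. Of all genes tested, 13.1% were so too. Neither member was called by edgeR, and the filter on low counts had left out Ifit1. For the other members the groups overlapped. The summed level of the oocyte and embryo markers, but not the level of each marker, differed between the groups as given above, and its part in these calls was not tested.

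**Figure D4:**
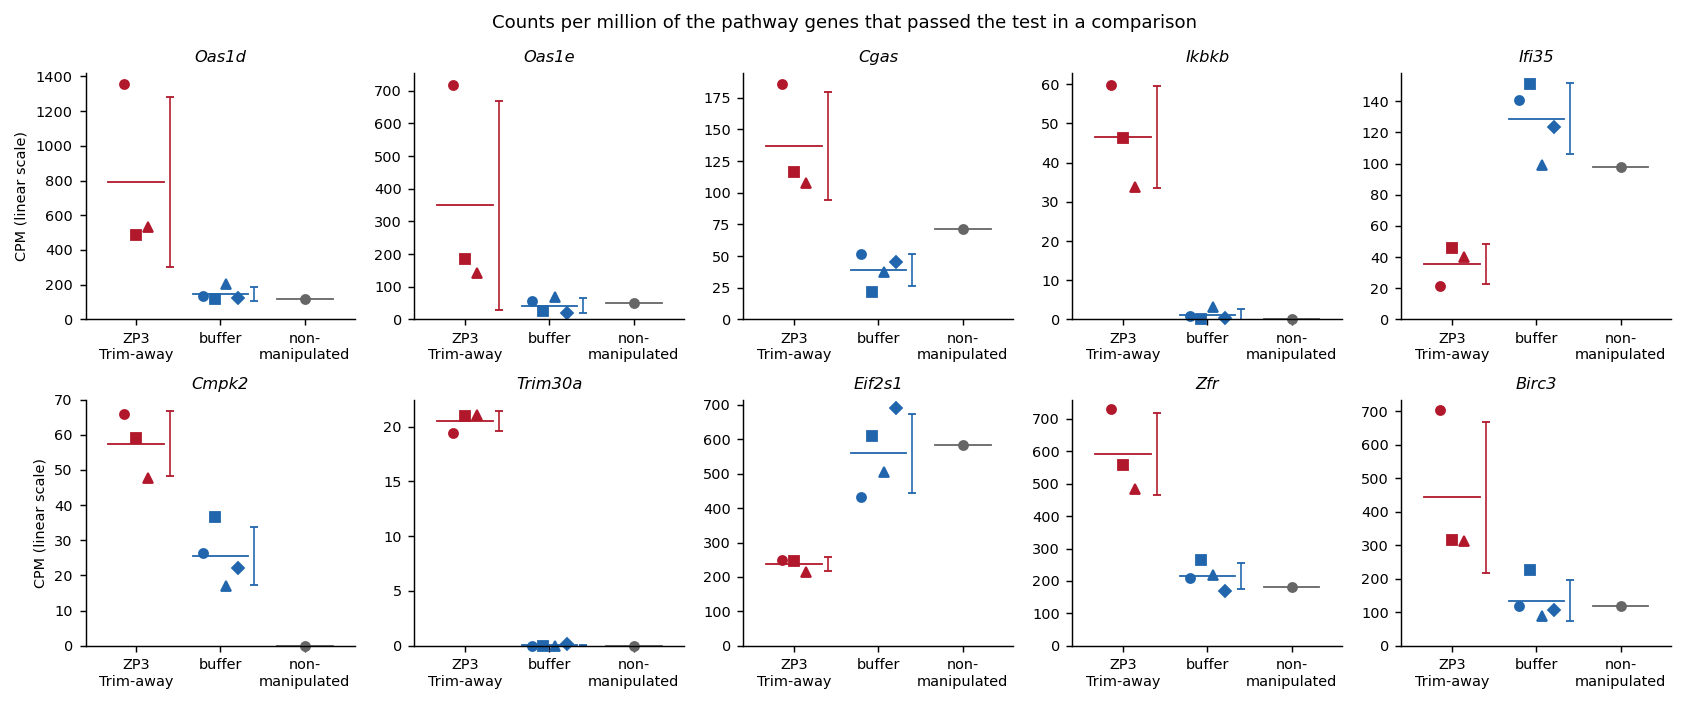
Level of the 9 list genes called in ZP3 Trim-away against buffer, and of Cmpk2, called in ZP3 Trim-away against non-manipulated, in TMM-scaled CPM on linear axes that start at 0 and differ between genes. Points are libraries (circle, square, triangle and diamond for replicates 1 to 4), horizontal lines are group means and vertical bars are SD. In none of the 10 panels, of genes chosen because they were called, do the ZP3 Trim-away and buffer libraries overlap, as in 28.6% of all genes tested, and Cmpk2 is at 0 in the non-manipulated library.

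The comparison with the non-manipulated library asks whether injection itself moved these genes. That group has 1 library, which the fit took to vary like the injected ones, and both injected groups were set against the same library. Buffer and non-manipulated embryos differed by no called gene: 0 of 14207 genes (0%) passed the edgeR test. An unadjusted p under 0.05 was found for 572 (4.03%), and DESeq2 called 572 (4.22%). The edgeR test did not call Trim21 either (adjusted p = 0.989), with 15576 to 205653 counts in the buffer libraries and 0 in the non-manipulated one. With 1 non-manipulated library, 0 calls thus cannot decide whether injection moved these genes. Of the 6 members tested, 0 were called, 1 had an unadjusted p under 0.05 (Isg15, 0.0499) and DESeq2 called 0. Isg15 averaged 2.80 ± 2.11 CPM in buffer (SD, n = 4) and had no count in the non-manipulated library, at least 21.6-fold higher than the limit of 3 counts by counting error, and buffer replicate 1 was at 0 as well. Mavs was lower in buffer, at 6.13 ± 3.03 CPM (SD, n = 4), against 34.7 CPM in the non-manipulated library, with a log2 fold change of -2.49 ± 1.68 (SE) and an adjusted p of 0.989. For Eif2ak2 the summed counts gave a ratio of 38.8 with a 95% exact interval of 10.6 to 322 over the 2 counts of the non-manipulated library, which covers counting error only, and nearly all buffer counts came from replicate 2. Irf3 and Adar averaged 7.58 and 5.26 CPM in buffer, against 8.03 and 5.05 CPM in the non-manipulated library. Of the 104 list genes tested, 0 were called, with 6 at an unadjusted p under 0.05 and 7 called by DESeq2.

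Between ZP3 Trim-away and non-manipulated embryos, 96 of 14207 genes (0.676%) were called, 25 of them higher in ZP3 Trim-away, a count that went to 0 when ZP3 Trim-away replicate 2 or any buffer library was left out of the fit, to 12 without ZP3 Trim-away replicate 3 and to 210 without ZP3 Trim-away replicate 1. Of the 6 members tested, 0 were called by edgeR, 1 had an unadjusted p under 0.05 (Isg15, 0.026, adjusted 0.267) and DESeq2 called 1, Isg15, with an adjusted p of 0.00287. Of all genes, 15.0% had an unadjusted p under 0.05 and DESeq2 called 14.8%, so that 1 of 6 members is near both shares. Isg15 averaged 17.6 ± 6.24 CPM in ZP3 Trim-away (SD, n = 3), at least 136-fold higher than the limit of 3 counts in the non-manipulated library by counting error alone. Ifit1, at 3.03 ± 4.24 CPM in ZP3 Trim-away, was at least 23.4-fold higher than that limit. For Eif2ak2 the ratio of summed counts was 27.8 with a 95% exact interval of 7.49 to 232, which overlaps that of buffer, and ZP3 Trim-away replicate 2 had no count. These values include ZP3 Trim-away replicates 2 and 3, which had few or no Trim21 reads. Replicate 1 alone was at 21.3 CPM for Isg15, 0.775 CPM for Ifit1 and 3.87 CPM for Eif2ak2. Of the 104 list genes, 1 was called. Cmpk2, a mitochondrial nucleotide kinase induced by interferon, had 65.8, 59.0 and 47.6 CPM in ZP3 Trim-away, 26.4, 36.5, 17.1 and 22.2 CPM in buffer and no count in the non-manipulated library. It was at least 444-fold higher in ZP3 Trim-away than the limit of 3 counts, and its adjusted p of 0.0266 in edgeR was above 0.05 without ZP3 Trim-away replicate 2 or 3 or any 1 buffer library, with at most 0.0768. In edgeR, Cmpk2 was not called in ZP3 Trim-away against buffer (adjusted p = 0.174) or in buffer against non-manipulated (adjusted p = 0.217). DESeq2 called it in both, at adjusted p-values of 0.0465 and 2.31e-05. Without ZP3 Trim-away replicates 2 and 3 its log2 fold change over buffer was 1.33.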

How the data were processed

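RNA-seq of 8 libraries of mouse embryos was analysed (3 ZP3 Trim-away, 4 buffer, 1 non-manipulated). The authors trimmed reads with Trimmomatic, checked them with FastQC 0.11.9, aligned them to GRCm38 with HISAT2 and counted them per Ensembl gene with htseq-count, and the deposited counts were used unchanged. The deposited RPKM values served in 2 alternatives. The authors describe them as scaled by transcript length, but all 96589 values above 0 with a width equalled, within 0.1%, the counts per kilobase of the gene width in the deposited table, which runs from start to end of the gene with its introns. Group sizes, mRNA dose and injection time follow the labels, and the study's text gives them otherwise. Rows without a symbol (25670 of 52636) held 2.85% of the counts and stayed in the fit, since they carry a gene identifier. The members and lists were chosen with earlier results of these data known.

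Counts were fitted with edgeR 4.0.16 (R 4.3.3): filterByExpr, TMM, quasi-likelihood test and Benjamini-Hochberg adjustment over all genes tested, at 0.05. SE was taken as the log2 fold change divided by the root of F. Buffer and ZP3 Trim-away were set against the non-manipulated library in a fit of all 8. DESeq2 1.42.0, limma 3.58.1 (voom, and log2 of RPKM plus 0.1 or 1), no filter, size factors of DESeq2, the replicate block, omission of each library, and of both ZP3 Trim-away libraries with few or no Trim21 reads, were alternatives. The fit was tested on simulated data with 200 changed genes. Genes named were the 9 members, in each list up to 3 called genes with the smallest p or, with none called, the one with the highest mean level in injected libraries, Trim21 and Zp3, and the 2 genes most correlated with each member of at least 10 CPM (only Mavs); others are marked as chosen later. Levels per kilobase used exon lengths of GENCODE M21. Where a group had no count, 3 counts over the group were the limit, and such limits and the intervals (95%) cover counting error only. Total counts of 13228428 to 22427747 per library set the precision. Tables and plots were made in Python 3.11.15 (matplotlib 3.10.9, scipy 1.17.1, pandas 2.3.3 and numpy 2.4.6). Sequences are from RefSeq (GRCm38.p6).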

Additional observations from a re-analysis of the deposited data

Results flagged for a closer look

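Among 21 named genes with counts in the buffer group, 3 had 1 buffer library whose gap to the others, as a share of the range of the 4 libraries, was above the critical value of Dixon's test, where chance gives about 1 in 20. That rate holds for normally distributed values and was not checked for genes with counts near 0. For Ifih1, buffer replicate 3 stood out at 4.87 CPM (ratio 0.876). For Eif2ak2, buffer replicate 2 stood out at 12.9 CPM (ratio 0.995). Buffer replicates 1, 3 and 4 held 0, 0 and 1 counts of it, so the ratio is near 1 for almost any larger count. For Trim30a, buffer replicate 4 had 0.123 CPM, which is 2 counts, and the others had none. With the other libraries at 0 the ratio is 1.0 for any count, so for this gene it says nothing.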

How the results depend on the processing

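For ZP3 Trim-away against buffer, no member was called under any alternative except limma on log2(RPKM + 1), which called 1 (Isg15). The number of list genes called was 9, and 14 without the filter on low counts, 30 with DESeq2 and 16 with limma-voom. It was 17 and 19 with limma on log2(RPKM + 0.1) and log2(RPKM + 1), and ran from 3 to 8 when 1 library was left out. Without both ZP3 Trim-away libraries with few or no Trim21 reads, 1 ZP3 Trim-away library was left, so no number of calls is given. Of all genes, 941 were called, and 2354 with DESeq2, 1412 with limma-voom, 1566 with limma on log2(RPKM + 1) and 408 to 694 when 1 library was left out. With the replicate block, 0 list genes and 0 genes in all were called; the labels do not say that numbers mark shared days, and the deviations of same-numbered libraries correlated at -0.061, 0.006 and -0.0003, so the numbers were not taken to pair the libraries. For buffer against non-manipulated, the 0 calls stayed 0 except with DESeq2, which called 7 list genes and 572 genes in all. For ZP3 Trim-away against non-manipulated, 96 genes and 1 list gene were called, and 236 and 3 without the filter, 1890 and 19 with DESeq2 (with 1 member), 818 and 9 without both ZP3 Trim-away libraries with few or no Trim21 reads (chosen after seeing the data; each group then held 1 library and the spread came from the buffer libraries alone), and 0 to 210 and 0 to 1 when 1 library was left out. The causes were not tested. The common biological coefficient of variation was 1.16, and members with levels of a few CPM had SE of 1.38 to 2.65 on the log2 scale, so that differences of this size could not be shown. The non-manipulated group has 1 library, and whether reads were counted by strand is not stated in the sources used here.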
